A study of Mus musculus with 6 samples.

Results

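The 9 genes described here, Lef1, Tcf7, Klf2, Foxo1, Bach2, Satb1, Id3, Ly6c1 and Igfbp4, belong to the transcription program of naive and central regulatory T cells (Treg). They were taken by symbol from a count table of 37991 mouse genes, and all 9 were found and passed the filter on low counts. RNA was sequenced from Treg, T cells that express Foxp3 and hold immune responses in check, isolated from mouse spleen as CD4 cells carrying the reporter YFP. By label, 3 libraries came from KAP1 deficient and 3 from KAP1 sufficient (wild type) cells, and the question is how transcripts change in Treg without KAP1. KAP1, the product of the gene Trim28, is a co-repressor recruited to DNA by zinc finger proteins with a KRAB domain. The strain label reads C57BL/6 for deficient replicate 1 and for the sufficient libraries, C57BL/7 for deficient replicate 2 and C57BL/8 for deficient replicate 3. The labels give no Cre line, allele, age or number of animals, so every p-value rests on a spread between libraries that may be technical.

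Naive and central T cells recirculate through spleen and lymph nodes and divide little, while effector cells have met antigen and move to tissues. LEF1 and TCF1, the product of Tcf7, are related DNA-binding factors of the HMG box family and work in T cells from the thymus on. FOXO1 is held out of the nucleus when AKT signalling is active, and in its absence T cells lose KLF2 and homing receptors for lymph nodes such as CCR7. BACH2 represses effector genes such as Prdm1. A Treg can leave this program when it becomes an effector Treg.

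Trim28 went against the label in 2 libraries, so the members are given with and without them. It stood at 23.0, 18.6 and 231 CPM (counts scaled by the library total) in the libraries labelled deficient replicates 1, 2 and 3, against 244, 244 and 21.2 CPM in those labelled sufficient replicates 1, 2 and 3. Low Trim28 therefore marks deficient replicates 1 and 2 and the library labelled sufficient replicate 3, and high Trim28 marks sufficient replicates 1 and 2 together with the library labelled deficient replicate 3. Groups formed in this way rest on a measured transcript and not on the labels. Library totals ran from 9954344 to 10994745 counts. All libraries carried the Treg markers, with Foxp3 at 596 to 614 CPM in the deficient group and 621 to 747 CPM in the sufficient group. In bulk RNA, fewer cells of a type and less RNA per cell cannot be told apart.

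Promoter sequences are shown for the members that passed the test in the 4 libraries whose Trim28 level fits their label, namely Id3, Ly6c1 and Igfbp4. Each runs from 250 bases before to 50 bases after a RefSeq transcription start, 5′ to 3′ on the gene's strand (GRCm38.p6, the assembly of mm10). Capitals mark the letters CCACCC on either strand, which many KLF family factors bind. The windows are chr4:136143572-136143871 (plus strand) for Id3, chr15:75048788-75049087 (minus strand) for Ly6c1 and chr11:99040994-99041293 (plus strand) for Igfbp4.
Id3: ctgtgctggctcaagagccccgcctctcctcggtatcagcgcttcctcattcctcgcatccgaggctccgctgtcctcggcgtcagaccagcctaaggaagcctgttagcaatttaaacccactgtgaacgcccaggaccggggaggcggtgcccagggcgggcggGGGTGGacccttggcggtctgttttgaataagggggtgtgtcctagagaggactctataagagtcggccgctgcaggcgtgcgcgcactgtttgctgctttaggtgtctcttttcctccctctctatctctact
Ly6c1: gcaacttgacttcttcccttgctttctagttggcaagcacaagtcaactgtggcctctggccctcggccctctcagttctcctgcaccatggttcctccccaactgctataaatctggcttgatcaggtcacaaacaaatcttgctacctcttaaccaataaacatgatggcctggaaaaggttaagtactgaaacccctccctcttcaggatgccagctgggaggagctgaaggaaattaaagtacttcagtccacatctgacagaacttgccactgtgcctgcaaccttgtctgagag
Igfbp4: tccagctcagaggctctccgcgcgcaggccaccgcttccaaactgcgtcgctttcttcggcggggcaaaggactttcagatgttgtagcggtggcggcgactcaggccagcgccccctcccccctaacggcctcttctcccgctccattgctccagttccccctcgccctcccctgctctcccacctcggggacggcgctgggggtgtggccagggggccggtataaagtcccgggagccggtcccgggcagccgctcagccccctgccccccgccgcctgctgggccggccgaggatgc

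These promoters differ in base composition. Ly6c1 held 1 CpG dinucleotide in 300 bases, against 19 for Id3 and 27 for Igfbp4, and the median of 32851 mouse promoters of the same length was 7. Among all 9 members, CCACCC was found on either strand in the windows of Lef1, Klf2 and Id3, and in 31.5% of all promoters. TGCCGC, the core letters known for the zinc finger protein ZFP57 that works with KAP1, was found in those of Tcf7, Klf2 and Foxo1, and in 11.6% of all promoters. The E protein letters CAGGTG occurred in Lef1 and Satb1, and in 20.2% of all promoters. TGTTTAC for FOXO factors (3.65% of all promoters) and CTTTGAT for TCF and LEF factors (3.73%) were in none of the 9 windows. The Bach2 window lies at a RefSeq start 178631 bases from the GENCODE start of the gene. The RefSeq start used for Id3 lies 325 bases inside the GENCODE gene, and its window begins after the GENCODE start. For these 2 genes the statements do not cover the promoter at the GENCODE start. In the Tcf7 window the TGCCGC match overlaps an ATG. The reading frame from this ATG holds no stop codon up to the end of the window. Whether the Tcf7 match lies in coding sequence rather than in a promoter was not tested. The start used for Lef1 lies 148 bases from that of GENCODE. Of all letters searched, the sequences shown hold only the CCACCC match of Id3.

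Tcf7 had the highest level per length of the 9 genes and Bach2 the lowest. On the scale of CPM per kb of annotated exon, with the median and range of 6 libraries, Tcf7 stood at 370 (326 to 428), Klf2 at 160 (139 to 173) and Igfbp4 at 93.6 (68.0 to 113). Foxo1 followed at 50.2 (47.8 to 52.8), Id3 at 44.6 (37.0 to 61.9), Ly6c1 at 30.2 (25.4 to 35.6) and Lef1 at 29.7 (27.7 to 32.9). Satb1 stood at 25.2 (22.7 to 26.0) and Bach2 at 19.1 (18.4 to 20.0). Neighbours in this order whose ranges overlapped were Foxo1 with Id3, and Ly6c1 with Lef1. Long untranslated or rarely used exons lower the value of a gene, and Satb1 has the longest exon total of the 9 with 19027 bases. The spread over libraries also differed, with the highest library at 1.08 times the lowest for Bach2 and 1.67 times for Id3.

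**Figure D1:**
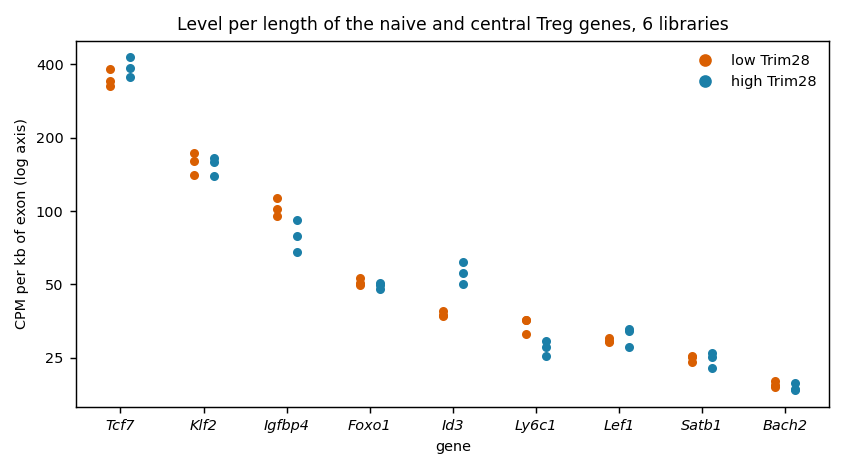
Level of each of the 9 genes in CPM per kb of exon (log axis) in the 6 libraries, with low-Trim28 libraries left and high-Trim28 libraries right of each tick. Tcf7 is highest at a median of 370 and Bach2 lowest at 19.1, and the libraries differ most for Id3 and Igfbp4.

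With all 6 libraries as labelled, none of the 9 genes passed the edgeR test, which called 0.0165% of 12158 genes. At an unadjusted p under 0.05 there was 1 member, Klf2, and 944 genes (7.76%) in all. The median log2 fold change of the members was 0.02, against 0.00 over all genes tested. In the 4 libraries without both doubted ones, 3 of 9 members passed: Id3 was lower in deficient cells, and Ly6c1 and Igfbp4 were higher. In that comparison 17.4% of 12183 genes were called, 9.96% higher and 7.39% lower. The transcription factors Lef1, Tcf7, Klf2, Foxo1, Bach2 and Satb1, did not pass there, and the median log2 fold change of the 9 members was 0.05, against 0.00 for all genes. Grouped by Trim28 level, 2 of 9 passed, Id3 lower and Ly6c1 higher in the low-Trim28 libraries, with 8.23% of 12158 genes called, 4.61% higher and 3.61% lower. Values in CPM did not overlap between low-Trim28 and high-Trim28 libraries for Id3, which was lower (14.5% of genes tested), and for Ly6c1 and Igfbp4, which were higher (11.9%). The 4-library and the Trim28-level comparisons share 4 libraries.

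**Figure D2:**
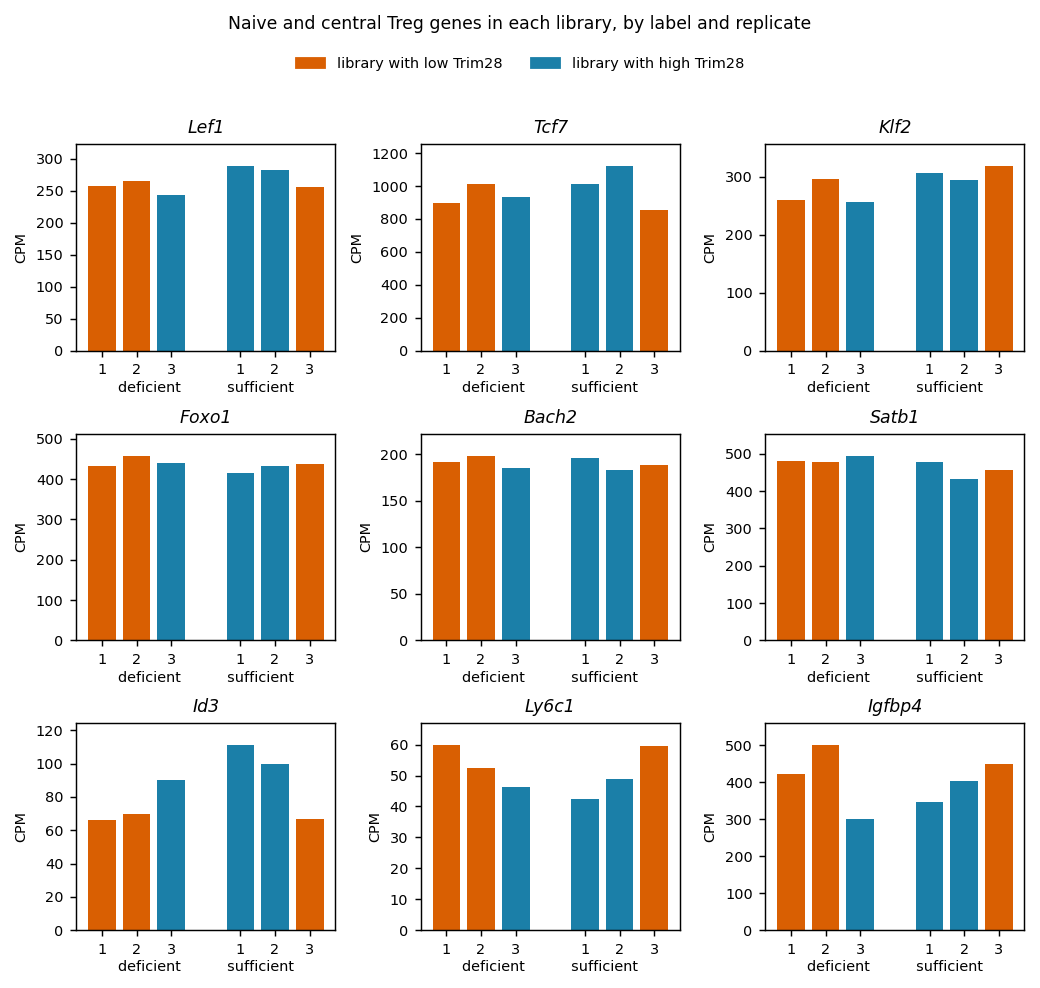
CPM of each gene in every library (bars start at 0), with the libraries labelled deficient left and those labelled sufficient right, numbered by replicate and coloured by Trim28 level. Id3 is lower, and Ly6c1 and Igfbp4 are higher, in all 3 low-Trim28 libraries than in any of the 3 high-Trim28 libraries, whichever label they carry.

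Lef1 (ENSMUSG00000027985, chromosome 3, 131110471 to 131224356) varied little. It had 257, 265 and 243 CPM in the libraries labelled deficient replicates 1, 2 and 3, against 289, 283 and 256 CPM in sufficient replicates 1, 2 and 3. Sufficient replicates 1 and 2 were the highest, and the library labelled sufficient replicate 3 lay within the range of the deficient group. The log2 fold change of Lef1 was -0.12 ± 0.07 (SE) by label (edgeR adjusted p = 0.655), -0.13 ± 0.05 in the 4 libraries (adjusted p = 0.0998) and -0.06 ± 0.07 by Trim28 level (adjusted p = 0.655). An antisense gene, Gm43352, shares 13.8% of the exon bases of Lef1, and the strand setting of the counting is unknown.

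Tcf7 (ENSMUSG00000000782, chromosome 11, 52252371 to 52283014) was the most abundant member in reads. Its values were 895, 1010.0 and 933 CPM in deficient replicates 1, 2 and 3, against 1016, 1123 and 857 CPM in sufficient replicates 1, 2 and 3. By label the groups overlapped because sufficient replicate 3 was the lowest of all libraries, and by Trim28 level because deficient replicate 2 lay above the library labelled deficient replicate 3. The log2 fold change of Tcf7 was -0.08 ± 0.09 by label (edgeR adjusted p = 0.83), -0.16 ± 0.06 in the 4 libraries (adjusted p = 0.0963, 95% interval -0.30 to -0.03) and -0.14 ± 0.08 by Trim28 level (adjusted p = 0.294). Tcf7 passed in 5 of 9 alternatives on the 4 libraries: without sufficient replicate 1 (-0.23) or deficient replicate 2 (-0.25), with upper-quartile scaling (-0.19), and at -0.16 with the replicate block or without the low-count filter. Lef1 passed in 1 of 9, with upper-quartile scaling (-0.16).

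Klf2 (ENSMUSG00000055148, chromosome 8, 72319033 to 72321656), a zinc finger factor that keeps T cells quiescent and drives the egress receptor S1PR1, was the member with the smallest unadjusted p under the labels. It had 259, 297 and 256 CPM in deficient replicates 1, 2 and 3, against 306, 294 and 319 CPM in sufficient replicates 1, 2 and 3. Deficient replicate 2 lay just above sufficient replicate 2, so the groups overlapped. Its log2 fold change was -0.18 ± 0.07 by label (edgeR adjusted p = 0.632), -0.11 ± 0.06 in the 4 libraries (adjusted p = 0.271) and 0.04 ± 0.08 by Trim28 level (adjusted p = 0.832). The Klf2 difference thus changed sign between the label and the Trim28 grouping and passed in neither.

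Foxo1, the forkhead factor upstream of Klf2 (ENSMUSG00000044167, chromosome 3, 52268336 to 52353221), had 431, 458 and 439 CPM in deficient replicates 1, 2 and 3, against 414, 432 and 438 CPM in sufficient replicates 1, 2 and 3. Bach2 (ENSMUSG00000040270, chromosome 4, 32238804 to 32586108) had 192, 198 and 185 CPM in the deficient libraries in the same order, against 195, 183 and 188 CPM in the sufficient ones. Both genes overlapped between groups by label and by Trim28 level, and both had the smallest spread of the 9, with a coefficient of variation over 6 libraries of 3.28% for Foxo1 and 3.14% for Bach2. By label the log2 fold change was 0.05 ± 0.05 for Foxo1 (edgeR adjusted p = 0.821) and 0.02 ± 0.06 for Bach2 (adjusted p = 0.937). The 95% interval in the 4 libraries of the log2 fold change was -0.03 to 0.19 for Foxo1 (edgeR adjusted p = 0.34) and -0.07 to 0.17 for Bach2 (adjusted p = 0.593). By Trim28 level the intervals were -0.05 to 0.17 and -0.07 to 0.17.

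Satb1, a chromatin organiser that acts in developing and naive T cells (ENSMUSG00000023927, chromosome 17, 51736187 to 51833290), had 481, 480 and 495 CPM in deficient replicates 1, 2 and 3, against 479, 431 and 456 CPM in sufficient replicates 1, 2 and 3. It was the 1 member whose labelled groups did not overlap, a state reached by 12.8% of genes tested, and with TMM library sizes they did overlap. The log2 fold change of Satb1 was 0.09 ± 0.06 by label (edgeR adjusted p = 0.684), 0.08 ± 0.06 in the 4 libraries (adjusted p = 0.366) and 0.02 ± 0.06 by Trim28 level (adjusted p = 0.88).

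Id3 (ENSMUSG00000007872, chromosome 4, 136143497 to 136145755), which encodes an inhibitor that binds E proteins and keeps them from DNA, moved most. It had 66.3, 69.5 and 90.2 CPM in the libraries labelled deficient replicates 1, 2 and 3, against 111, 99.9 and 66.8 CPM in those labelled sufficient replicates 1, 2 and 3. The library labelled sufficient replicate 3 lay with the deficient replicates numbered 1 and 2, whereas that labelled deficient replicate 3 lay below sufficient replicates 1 and 2 but above all low-Trim28 libraries. In the 4 libraries Id3 fell by 35.3% (log2 fold change -0.63 ± 0.07, SE, edgeR adjusted p = 2.62e-05, lower in 2 of 2 deficient libraries). By Trim28 level it averaged 67.5 ± 1.75 CPM in low-Trim28 libraries and 100.3 ± 10.3 CPM in high-Trim28 libraries (SD, n = 3 each). The log2 fold change was -0.56 ± 0.07 (adjusted p = 0.000214). Under the labels the value was -0.30 ± 0.22 (adjusted p = 0.729). Id3 kept its call in each of 9 alternatives on the 4 libraries, at -0.71 to -0.55, and in each of 11 by Trim28 level.

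The surface marker gene Ly6c1 (ENSMUSG00000079018, chromosome 15, 75044018 to 75048830) encodes a lipid-anchored protein. It had 59.7, 52.3 and 46.2 CPM in deficient replicates 1, 2 and 3, against 42.6, 48.9 and 59.7 CPM in sufficient replicates 1, 2 and 3. The 3 low-Trim28 libraries were the highest, and deficient replicate 2 stood nearest to the others. Ly6c1 rose by 23.0% in the 4 libraries (log2 fold change 0.30 ± 0.09, edgeR adjusted p = 0.0313) and by 25.7% in low-Trim28 libraries (0.33 ± 0.08, adjusted p = 0.0177), with 0.06 ± 0.14 under the labels (adjusted p = 0.915). It lost its call in the 4 libraries without sufficient replicate 1 (0.21) or deficient replicate 1 (0.20) and with DESeq2 (0.30), and by Trim28 level without sufficient replicate 1 (0.28), sufficient replicate 3 (0.30) or deficient replicate 1 (0.30).

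Ly6c1 has a close copy, Ly6c2, with which it shares 21.5% of the distinct 50-base runs of its annotated transcripts, so the split of reads between them is uncertain. Ly6c2 had 46, 41 and 10 counts in deficient replicates 1, 2 and 3, against 8, 27 and 41 counts in sufficient replicates 1, 2 and 3. Summed over both genes, the level was 64.3, 56.5 and 47.1 CPM in deficient replicates 1, 2 and 3, against 43.4, 51.6 and 63.7 CPM in sufficient replicates 1, 2 and 3. The sum was higher in every low-Trim28 library than in any high-Trim28 one. This had to be so, because each of the 2 genes alone was, and it does not check the split of reads.

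Igfbp4 (ENSMUSG00000017493, chromosome 11, 99041244 to 99054392) encodes a secreted protein that binds insulin-like growth factors, and its transcript is enriched in naive T cells. It had 422, 499 and 300.1 CPM in deficient replicates 1, 2 and 3, against 347, 404 and 449 CPM in sufficient replicates 1, 2 and 3. The lowest low-Trim28 library exceeded the highest high-Trim28 library by little. Igfbp4 rose by 23.1% in the 4 libraries (log2 fold change 0.30 ± 0.09, edgeR adjusted p = 0.0492). By Trim28 level the change was 0.39 ± 0.11, with an adjusted p of 0.0539 that missed the threshold, and under the labels it was 0.02 ± 0.21 (adjusted p = 0.983). The 4-library call was lost without sufficient replicate 1 (0.20) or deficient replicate 2 (0.18), with DESeq2 (0.30) and with upper-quartile scaling (0.27), whereas by Trim28 level a call was gained without sufficient replicate 2 (0.51) or deficient replicate 3 (0.29), with DESeq2 (0.39), with the replicate block (0.40) and without the low-count filter (0.39).

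**Figure D3:**
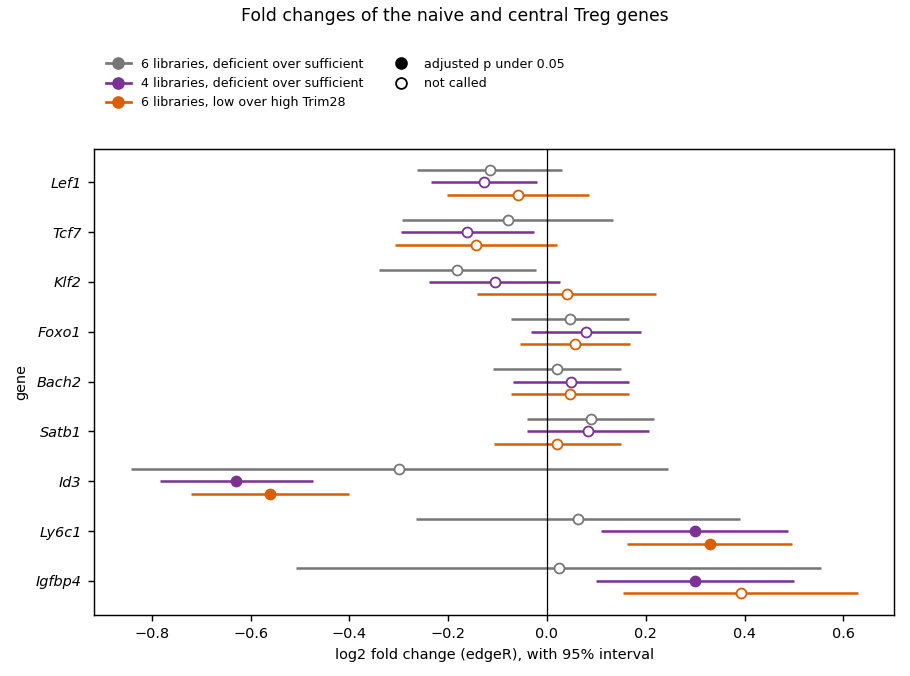
Log2 fold change of each gene with its 95% interval in the 3 edgeR comparisons, filled where the adjusted p is under 0.05. Id3 lies left of 0 and Ly6c1 right of 0 as called genes in 2 comparisons, Igfbp4 is called in the 4 libraries alone, and no gene is called with all 6 libraries as labelled.

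The libraries numbered 3 entered no 4-library value and differ in Trim28 opposite to their labels. Between them Id3 stood at 66.8 CPM in the library labelled sufficient replicate 3, which has low Trim28, and 90.2 CPM in the library labelled deficient replicate 3, which has high Trim28. Ly6c1 stood at 59.7 CPM in the low-Trim28 library of this pair and 46.2 CPM in the high-Trim28 one, and Igfbp4 at 449 and 300.1 CPM in the same order. All 3 members called in the 4 libraries thus differed in this pair in the direction of Trim28, as did 71.9% of the 2114 genes called there and 55.7% of the genes not called. Of the 6 members not called, 2 did so, Tcf7 and Bach2. With 1 library on each side, this pair has no replicate check.

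The 9 genes did not move as a block over the libraries. Of 36 pairs of members, 17 had a positive Pearson correlation of log2(CPM + 0.5) over the 6 libraries, with a median of -0.01 and a range of -0.92 to 0.74. The highest was that of Lef1 with Tcf7 and the lowest that of Id3 with Ly6c1. All pairs share the same 6 libraries, of which those with low Trim28 lie apart for Id3 and Ly6c1. Among 9409 genes with a mean log2 level of at least 3, the closest in pattern to Lef1 were Ptpn6 (0.995), Nfic (0.994) and Nudt9 (0.992). The closest to Tcf7 were Adam8 (0.995), Mthfd1 (0.994) and R3hdm4 (0.99). These were picked as the highest of a wide search over only 6 libraries, which favours high values, and shared regulation was not tested.

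Other surface and homing genes of naive T cells moved in part with Ly6c1 and Igfbp4. Without the doubted libraries, 4 of 10 such genes rose and 1 fell, with a median log2 fold change of 0.15 against 0.00 over all genes. Of all genes tested there, 9.96% were called higher and 7.39% lower. Treml2, a receptor of the TREM family, had 391, 375 and 248 CPM in deficient replicates 1, 2 and 3, against 266, 253 and 393 CPM in sufficient replicates 1, 2 and 3. Its log2 fold change was 0.57 ± 0.05 in the 4 libraries (edgeR adjusted p = 3.53e-06) and 0.60 ± 0.05 by Trim28 level (adjusted p = 3.71e-06). Actn1, an actin cross-linker, rose by 0.28 ± 0.05 and Nsg2 by 0.19 ± 0.05 on the log2 scale in the 4 libraries, and Ly6c2 by 1.33 ± 0.37. Ly6c2 lost this call without sufficient replicate 1 (0.72) and with DESeq2 (1.34, adjusted p = 0.148), and stood at 2.44 without sufficient replicate 2. By Trim28 level the 4 genes that rose passed again, though Ly6c2 did not without sufficient replicate 1 (edgeR adjusted p = 0.0574) or deficient replicate 1 (adjusted p = 0.0606).

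Genes tied to quiescence moved both ways. Without the doubted libraries 9 of 13 did not pass, 2 rose and 2 fell, with a median log2 fold change of -0.07. Over all genes tested there, 9.96% were called higher and 7.39% lower. Klf3, a repressor related to Klf2, had 152, 149 and 159 CPM in deficient replicates 1, 2 and 3, against 210, 209 and 146 CPM in sufficient replicates 1, 2 and 3. The cell cycle inhibitor gene Cdkn1b had 422, 426 and 430 CPM in the deficient libraries in the same order, against 336, 323 and 430 CPM in the sufficient ones. For both genes the library labelled deficient replicate 3, with high Trim28, stood beside the low-Trim28 libraries rather than beside sufficient replicates 1 and 2. Klf3 in the 4 libraries fell by 0.47 ± 0.05 and Slfn2 by 0.21 ± 0.05 on the log2 scale, while Cdkn1b rose by 0.37 ± 0.05 and Runx1 by 0.20 ± 0.05 (edgeR adjusted p = 1.69e-05, 0.00923, 0.000146 and 0.0197). By Trim28 level 2 of 13 passed, Klf3 and Slfn2, both lower, against 3.61% of all genes tested called lower.

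Partners and regulators of the member factors formed a list of 15 genes. In the 4 libraries 11 did not pass, 3 fell and 1 rose (median log2 fold change -0.02), with 17.4% of all genes tested called. The co-repressor genes of TCF and LEF factors split, with Aes at -0.31 ± 0.05 and Tle3 at -0.25 ± 0.06 falling and Tle4 at 0.24 ± 0.08 rising. Axin2, a target gene of beta-catenin signalling through TCF and LEF factors, was lower by edgeR with a log2 fold change of -0.23 ± 0.07 (adjusted p = 0.0416). By Trim28 level 1 of the 15 passed, with 8.23% of all genes tested called. This was Id2, the relative of Id3, at -0.46 ± 0.12 (edgeR adjusted p = 0.0326). Id2 was named after its values were seen. It had 15.4, 19.2 and 27.8 CPM in deficient replicates 1, 2 and 3, against 21.2, 21.6 and 16.5 CPM in sufficient replicates 1, 2 and 3.

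Effector Treg genes, the counterpart of this program, fell in 8 of 20 cases and rose in none in the 4 libraries, with a median log2 fold change of -0.26. Of all genes tested there, 7.39% were called lower and 9.96% higher. Maf had 125, 128 and 206 CPM in deficient replicates 1, 2 and 3, against 183, 204 and 123 CPM in sufficient replicates 1, 2 and 3. Myb, a factor of effector Treg, fell by 0.38 ± 0.08 on the log2 scale, beside Klrg1 (-4.09 ± 0.35), Maf (-0.60 ± 0.06) and Icos (-0.60 ± 0.07). Cell cycle genes fell in 10 of 12 cases, with a median of -0.57, among them Mki67, Rrm2, Aurkb and Mcm3 (-0.77, -0.62, -1.05 and -0.43). By Trim28 level 7 of 20 effector genes and 11 of 12 cell cycle genes fell, with medians of -0.25 and -0.53. That grouping called 3.61% of all genes tested lower. With all 6 libraries as labelled, no gene of the naive, quiescence, partner, effector or cell cycle lists was called by edgeR, and the medians were 0.04, 0.00, 0.00, -0.08 and -0.23. Before adjustment, 2 of 15 partner genes and 0 genes of the other 4 lists had a p under 0.05, against 7.76% of all genes tested. The effector and cell cycle lists moved in the same libraries as Id3, Ly6c1 and Igfbp4, and their part in those differences was not tested.

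**Figure D4:**
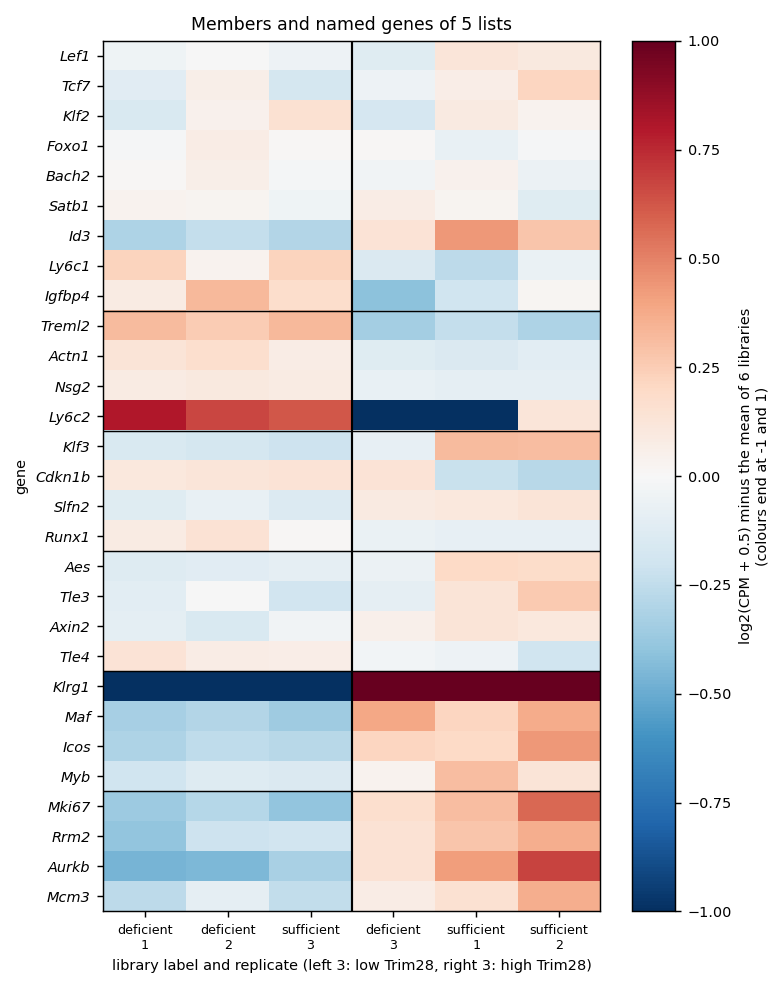
Log2(CPM + 0.5) minus the mean of the 6 libraries for the 9 members (top block) and for the named naive, quiescence, partner, effector and cell cycle genes, with low-Trim28 libraries on the left. Lef1, Tcf7, Klf2, Foxo1, Bach2 and Satb1 stay pale, Id3 is low and Ly6c1 and Igfbp4 are high on the left, and effector and cell cycle genes are low on the left.

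Markers of other cells were checked because several members are also expressed outside Treg. The summed level of 6 B cell markers was 15.4 to 16.0 CPM in low-Trim28 libraries and 23.0 to 27.6 CPM in high-Trim28 libraries, with Ms4a1 at 0 to 1 counts. The 3 NK cell markers summed to 9.999 to 11.9 CPM in low-Trim28 and 4.62 to 7.03 CPM in high-Trim28 libraries, with Ncr1 at 0 counts in every library. The other NK cell markers differed in opposite directions by Trim28 level, each without overlap. Klrb1c stood at 8.74 to 10.8 CPM in low-Trim28 and 2.18 to 2.77 CPM in high-Trim28 libraries (log2 fold change 1.97, edgeR adjusted p = 4.08e-06). Eomes stood at 1.09 to 1.81 CPM in low-Trim28 and 2.06 to 4.26 CPM in high-Trim28 libraries and did not pass (-1.07, adjusted p = 0.0593). The 3 markers of conventional CD4 T cells, which share the naive program, summed to 165 to 174 CPM in low-Trim28 and 151 to 192 CPM in high-Trim28 libraries. The 3 endothelial markers, listed because endothelium expresses Ly6c1, summed to 199 to 224 CPM in low-Trim28 and 225 to 246 CPM in high-Trim28 libraries, nearly all from Pecam1, with Kdr at 0 and Cdh5 at 0 to 1 counts. CD8 T cell, myeloid, dendritic and erythroid markers overlapped between low-Trim28 and high-Trim28 libraries. Of 7 Treg markers, 3 were called in the 4 libraries, where 17.4% of all genes tested were called. Foxp3 (log2 fold change -0.25, edgeR adjusted p = 0.00509) and Cd4 (-0.15, 0.0456) were lower, and Ikzf2 (0.19, 0.0167) was higher. By label and by Trim28 level, 0 of the 7 were called. The part of Treg, B cell, NK cell and endothelial markers in the member differences was not tested.

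The authors' deposited table, in which positive values mean higher where Trim28 is high, lists 0.50 ± 0.08 for Id3 (adjusted p = 7.4e-08), -0.34 ± 0.08 for Igfbp4 (0.000839) and -0.26 ± 0.08 for Ly6c1 (0.0319). For Tcf7 the authors' deposited table gives 0.14 ± 0.07 (adjusted p = 0.286), and for Lef1, Klf2, Foxo1, Bach2 and Satb1 adjusted p-values of 0.649 to 0.948. The libraries that entered that table are not named in the sources. For Trim28 the authors' table lists 3.11 ± 0.08. With the sign the other way, the log2 fold change of Trim28 here was -0.90 ± 1.46 by label. It was -3.54 ± 0.08 in the 4 libraries and -3.51 ± 0.08 by Trim28 level. In size, the authors' Trim28 value lies nearer to these last values than to the value by label.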

How the data were processed

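Counts per Ensembl gene were deposited by the authors without normalization. The submitters' processing notes name the mm10 build, DESeq2, HTSeq 0.7.2 and TopHat2 2.1.1 without saying what each was used for. Groups came from sample titles. Symbols came from a reference table (32919 of 37991 rows matched), and rows without a symbol held 0.603% of counts. Positions and exon lengths are from GENCODE M21. The authors' deposited table also gives log2 fold changes, their errors and adjusted p-values.

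CPM are counts scaled by library totals. Tests on counts used edgeR 4.0.16 under R 4.3.3 (quasi-likelihood, robust, TMM factors of 0.994 to 1.01, filterByExpr), adjusted over all genes tested by Benjamini-Hochberg at 0.05. Alternatives were other scaling factors, no filter, DESeq2 1.42.0, a replicate block and leaving out each library. A count of 3, taken as the floor, is 0.273 to 0.301 CPM, and floors cover counting error only. No library pair agreed within sampling noise (smallest chi-square per degree of freedom 2.52). Between low-Trim28 libraries this value was 2.52 to 3.24, and between sufficient replicates 1 and 2 it was 2.93. The library labelled deficient replicate 3 stood apart from every other library, at 7.68 to 9.22. Its values against sufficient replicates 1 and 2, which share its high Trim28, were 7.68 and 8.14. The scripts were tested on simulated data with known changes in genes of all levels. Changes of 1.25-fold were called in 4% of cases by label, 29% in the 4 libraries and 35% by Trim28 level. Changes of 2-fold were called in 78%, 87% and 88% in the same order. A gene that was not called may therefore still have changed by a small amount.

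The members and the gene lists (5 lists of 70 genes, and 9 marker lists) were chosen with earlier results of these data known, as were the 4 libraries. All members, Trim28 and up to 4 called genes per list, those with the smallest adjusted p in the 4 libraries, were named, with Ly6c2 and the 3 genes closest in pattern to Lef1 and to Tcf7. Promoter windows are from RefSeq on GRCm38.p6, taking for each member the start nearest to that of GENCODE; all 9 members matched. In the 4 libraries the spread is estimated from 2 libraries per group. Some genes of the lists are counted in them but not reported here.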

Additional observations from a re-analysis of the deposited data

How the results depend on the processing

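With all 6 libraries as labelled, the 2 called genes became 6 with DESeq2 and 1 to 807 without single libraries, with the maximum on leaving out sufficient replicate 3. With the replicate block edgeR called 0 genes, and 705 had an unadjusted p under 0.05. No member was called under the labels in any of 11 alternatives. In the 4 libraries, 2114 calls (1214 higher, 900 lower) became 942 with DESeq2 and 2294 (1046 higher, 1248 lower) with upper-quartile factors, and the 3 called members became 1 with DESeq2, which was Id3. By Trim28 level, 1000 calls became 1676 without the low-count filter and 556 to 2737 without single libraries, the highest without the library labelled deficient replicate 3, and the called members numbered 1 to 5 without single libraries. The lowest number held without sufficient replicate 1, sufficient replicate 3 or deficient replicate 1, and the highest without deficient replicate 3, where Lef1 (-0.14) and Tcf7 (-0.21) were also called. The cause was not tested. The replicate block gave 2359 calls in the 4 libraries, with Tcf7 called at -0.16 (edgeR adjusted p = 0.0194) beside the 3 members, and 1117 calls by Trim28 level. Same-numbered libraries had deviations from their labelled group means correlated at -0.355, -0.277 and -0.594. Each labelled group mixes both Trim28 levels, and same-numbered libraries have opposite levels, so these values cannot test a pairing. In the 4 libraries the correlation was -0.003, which does not show a pairing. For 9 members and Ly6c2, 75 of 90 values on the 4 libraries stayed on the same side of the threshold, while 9 lost and 6 gained a call, against 98 of 110, 5 and 7 by Trim28 level. No called value changed sign in either. With TMM library sizes, 0 members in place of 1 had labelled groups without overlap. Depth limits Ly6c2, with 8 to 46 counts per library, more than the members, which had at least 430.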
